A study of Homo sapiens with 2 samples.

Results

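Ion channel genes were examined in OVSAHO, a human line established from serous ovarian cancer. The members were the genes whose symbol marks a pore or auxiliary subunit of a potassium (KCN), calcium (CACN), sodium (SCN followed by a digit, SCNN), TRPC, TRPM or TRPV, CLC chloride (CLCN), anoctamin (ANO), P2X or PIEZO channel. Of 26255 measured gene symbols, 217 met this rule, 21 antisense, opposite-strand or OT symbols were left out, and 196 members remained. There were 2 libraries, 1 per group. The perturbed group, named OVSAHO-A2-siA4 in the series text, has the genotype label SMARCA2 stable with SMARCA4 knockdown, and the series text gives SMARCA2 as raised. The control group, OVSAHO-Ctrl-siNC, is labelled WT. Both were kept in carboplatin, a DNA-crosslinking platinum drug, at 25 µM for 2 days, so neither is an untreated state. SMARCA2 and SMARCA4 are the alternative ATPases of the SWI/SNF chromatin remodelling complex. The labels do not say whether either line is a single clone.

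Ion channels are membrane proteins that let ions flow down their gradients. The pore-forming subunits decide which ion passes, and auxiliary subunits alter their gating, trafficking and stability. In epithelial and tumour cells, potassium leak channels set the membrane potential, chloride and volume channels help control cell size, and calcium-permeable and mechanically gated channels carry signals from the matrix. Most voltage-gated sodium and calcium channels are known from nerve and muscle.

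Values are FPKM, which divide the fragments of a gene by its transcript length and by the library's mapped fragments, so levels can be compared between genes. SMARCA2 was at 2.60 FPKM in perturbed and 0.205 FPKM in control cells, and SMARCA4 at 4.49 and 27.9 FPKM, in the directions that the series text gives. The depth, estimated from the steps of low values, was about 8850000 fragments for the perturbed library and 9050000 for the control. Of 6 serous markers, 5 (PAX8, WT1, FOLR1, MSLN and EMX2) reached 1 FPKM in a library, as did each of 6 epithelial markers, and MUC16 was at 0 and 0.0608 FPKM. The epithelial markers summed to 1016 and 1604 FPKM in the perturbed and the control library, with 5 of the 6 lower in the perturbed library. KRT7 was at 119 and 540 FPKM, CLDN4 at 31.6 and 126, KRT19 at 0.356 and 3.04, KRT18 at 362 and 420 and KRT8 at 462 and 488 FPKM, while EPCAM was at 40.9 and 27.1 FPKM. The part of these differences in the channel results was not tested. None of 6 fibroblast and 6 endothelial markers reached 1 FPKM in either library. A single marker each of the neuronal (TUBB3), muscle (TNNI3) and leukocyte lists did, while PTPRC, STMN2, MYH6 and MYH7 were listed at 0 in both. In bulk RNA, fewer cells of a type and less RNA per cell cannot be told apart.

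With 1 library per group there is no error between cultures, no p-value can be given, and each difference is between these 2 libraries. A gene is named expressed below when either library had it at 1 FPKM or above. An expressed gene was called higher in the perturbed library when log2((perturbed + 1)/(control + 1)) reached 1, and lower when it reached -1. Adding 1 FPKM shrinks the ratio of weak genes, so folds are given without it. The bracketed range after a fold is its 95% Clopper-Pearson (exact binomial) interval, which was made on approximate fragment numbers and covers counting error only.

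Sequences at the start sites are shown first for the members on which the comparison turns: KCNK1 and KCNK6, tandem-pore potassium channels with opposite differences, and ANO6 and SCN2B, of the higher members. Each line is the 250 bases upstream of an annotated start of the gene, 5′ to 3′ on its strand, from RefSeq on GRCh38.p14. Capitals mark matches to GGGCGG on either strand, overlapping matches included, the core of the GC box bound by SP factors. They lie at chr1:233613856-233614105 (+ strand) for KCNK1, chr19:38319595-38319844 (+) for KCNK6, chr12:45292440-45292689 (+) for ANO6 and chr11:118176640-118176889 (- strand) for SCN2B.
KCNK1: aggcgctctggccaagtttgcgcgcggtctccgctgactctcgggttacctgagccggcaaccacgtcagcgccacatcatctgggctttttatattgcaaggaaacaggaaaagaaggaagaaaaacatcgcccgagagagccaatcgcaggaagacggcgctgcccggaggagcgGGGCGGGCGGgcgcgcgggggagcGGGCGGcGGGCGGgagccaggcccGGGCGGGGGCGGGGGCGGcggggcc
KCNK6: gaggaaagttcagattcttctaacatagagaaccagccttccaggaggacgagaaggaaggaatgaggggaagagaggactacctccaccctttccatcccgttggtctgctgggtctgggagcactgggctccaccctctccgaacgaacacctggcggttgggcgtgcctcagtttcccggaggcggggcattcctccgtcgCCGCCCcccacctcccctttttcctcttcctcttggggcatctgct
ANO6: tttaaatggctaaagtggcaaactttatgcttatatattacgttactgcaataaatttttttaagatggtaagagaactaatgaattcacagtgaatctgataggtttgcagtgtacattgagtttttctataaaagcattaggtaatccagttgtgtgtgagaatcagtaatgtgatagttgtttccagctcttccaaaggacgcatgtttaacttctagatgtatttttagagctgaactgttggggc
SCN2B: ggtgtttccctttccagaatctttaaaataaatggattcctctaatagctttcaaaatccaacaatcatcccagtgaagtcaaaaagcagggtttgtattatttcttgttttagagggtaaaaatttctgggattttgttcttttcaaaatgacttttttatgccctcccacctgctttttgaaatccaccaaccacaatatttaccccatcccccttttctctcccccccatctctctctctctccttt

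The KCNK1 window had 7 GGGCGG matches, 30 CpG dinucleotides and a GC content of 69.2%. The KCNK6 window had 1 match, 11 CpG and 59.6% GC. Those of ANO6 and SCN2B had no match, 2 and 0 CpG, and a GC content of 33.6% and 38% respectively. The windows printed for these 3 higher members were therefore of unlike composition. A gene can have other starts: ANO6 had 4 matched transcripts. Which start is used in these cells was not tested. The RefSeq table held a start for 140 of the 196 members. Among the 26 expressed ones the median GC content was 68.6% with 25 CpG, against 63.6% with 11.5 CpG among the 114 others. Expressed genes of any kind had 65.2% with 21 CpG, and all measured genes with a listed start 61.6% with 17 CpG. GGGCGG was present in 73.1% of the 26, in 51.8% of the 114 and in 69.0% of 8744 expressed genes of any kind. The AP-1 core TGANTCA, on either strand, was in none of the 26 windows and in 3.74% of the 8744. The TEAD core GGAATG, on either strand, was in 1 of the 26, that of KCNK6 with 2 matches, and in 9.5% of the 8744. A match is a run of letters in this window and not evidence of binding.

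Most channel genes were silent or near the limit of detection. Of the 196 members, 85 were listed at 0 in both libraries, 77 were above 0 but under 1 FPKM in both, and 34 were expressed, which is 17.3% against 44.9% of all measured genes. The number above 0 was 93 in each library, and 18 were above 0 in the perturbed library only and 18 in the control only. These last 36 were weak: CACNG4 at 0.384 FPKM was the highest of the first 18, and KCNQ5-IT1 at 1.22 FPKM the only one of the others at 0.5 FPKM or more. The perturbed library had 31 members at or above 1 FPKM and the control 26. Of all measured genes, 15925 were above 0 in the perturbed library and 15517 in the control, and 11271 and 10730 reached 1 FPKM. The summed level of the 185 members that encode channel subunits was 143 FPKM in perturbed and 119 FPKM in control cells.

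**Figure D1:**
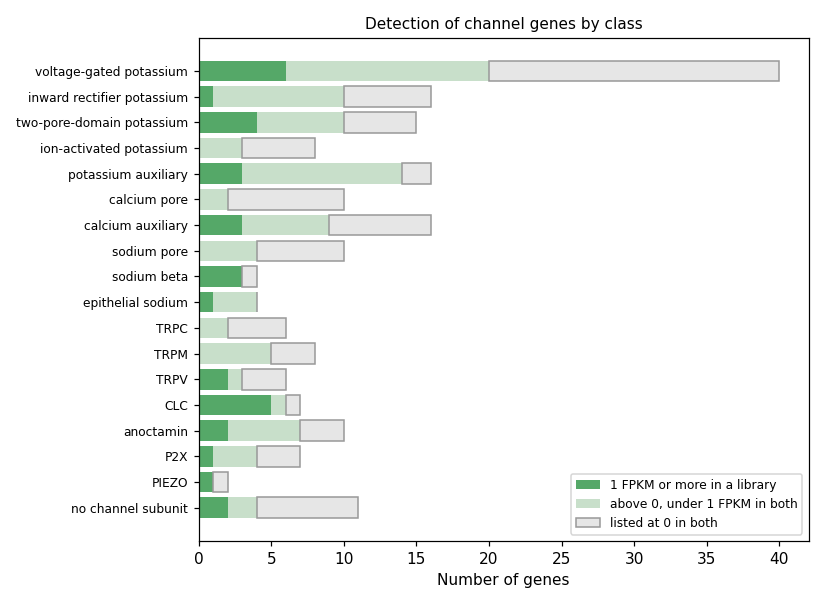
Number of channel genes in each class (x axis) split into those expressed (1 FPKM or more in either library), those above 0 but under 1 FPKM in both, and those listed at 0 in both. The pore subunits of calcium and voltage-gated sodium channels, the ion-activated potassium channels and the TRPC and TRPM families have no gene at 1 FPKM.

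Of the 34 expressed members, 6 were called higher in the perturbed library and 3 lower. The higher ones included ANO6, PIEZO1, SCN2B, KCNMB3 and KCNK1, and the lower ones were KCNK6, KCNK15 and KCNQ5-IT1. Among all 11785 expressed genes, 7.85% were called higher and 7.61% lower. Weakly expressed genes were called higher more often: of the genes whose higher value lay from 1 to 20 FPKM, as 33 of the 34 members did, 10.1% were called higher and 6.45% lower. With each library scaled to a common sum, all genes split into 10.5% higher and 5.70% lower, and the members into 9 and 3. The members' unscaled shares were 17.6% and 8.82%, and with counts this small nothing particular to channel genes is read from them. The members' median log2 ratio was 0.47, beside -0.06 for all expressed genes and 0.08 for genes from 1 to 20 FPKM. The ratio was above 0 in 22 of the 34 members, which is 64.7%. The share was 46.5% among all expressed genes and 54.4% among genes from 1 to 20 FPKM. The filter bears on the count of 22. Of the 34, 8 reached 1 FPKM in the perturbed library alone and 3 in the control alone. Among these were 3 of the 6 higher and 2 of the 3 lower members. Of all 11785 expressed genes, 11271 reached 1 FPKM in the perturbed library and 10730 in the control. Among the 23 members that reached 1 FPKM in each library the median was 0.34 against -0.10 for all such genes, with ANO6, PIEZO1 and SCN2B called higher and KCNK6 lower.

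**Figure D2:**
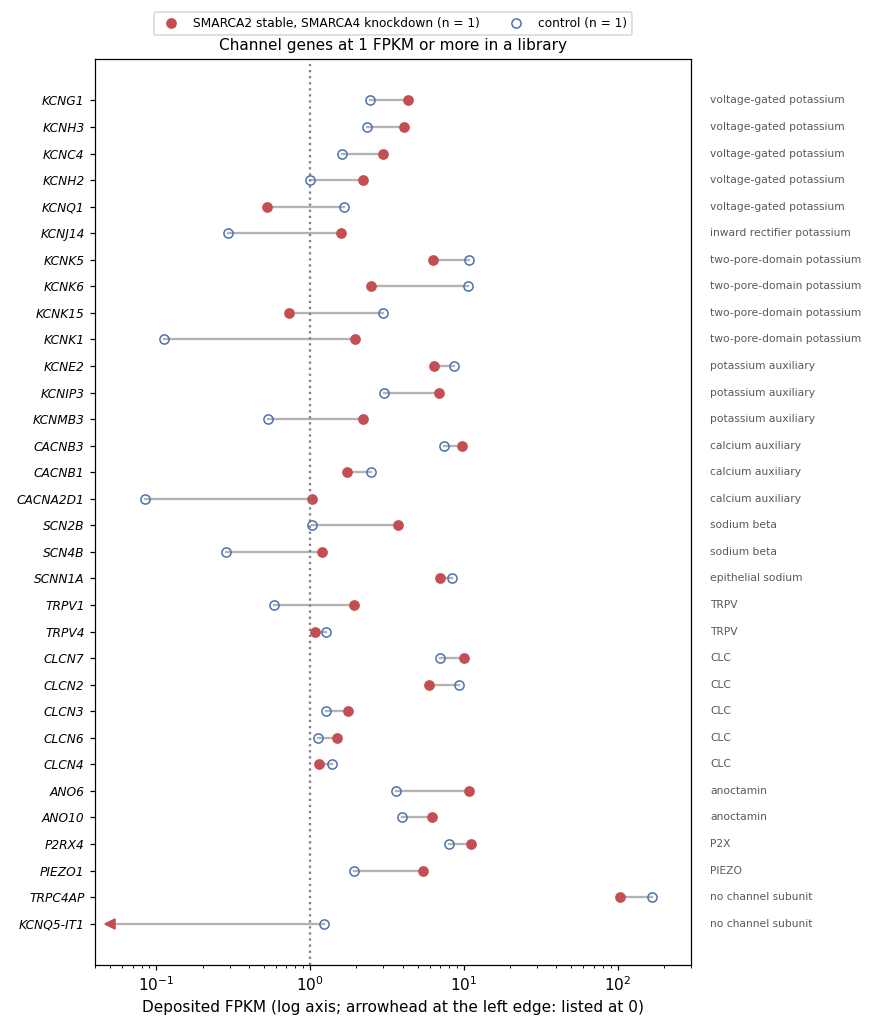
Deposited FPKM (log axis) of 32 of the 34 expressed members, perturbed (filled) and control (open), joined by a line and ordered by class; each point is 1 library. The control point lies far to the right for KCNK6 and KCNK15 and far to the left for KCNK1 and CACNA2D1.

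Potassium channels made up 100 of the 196 members. The tandem-pore (KCNK) family carries the background potassium leak that holds the resting potential. Of its 15 members, 4 reached 1 FPKM, and they went apart. KCNK5, an alkaline-activated leak channel of epithelia also called TASK-2, was at 6.27 FPKM in perturbed and 10.9 FPKM in control cells. KCNK6, also called TWIK-2, was at 2.48 and 10.6 FPKM, 4.26-fold lower (3.50 to 5.25). KCNK15 was at 0.726 and 2.98 FPKM, 4.11-fold lower (2.39 to 8.01). KCNK5 did not pass the rule, at 0.578 of its control level (0.482 to 0.689). KCNK1, also called TWIK-1 and a close relative of KCNK6, was at 1.96 and 0.113 FPKM, 17.4-fold higher, and the control value rested on about 2 fragments, with an interval from 4.45-fold to 149-fold. The summed level of the family was 12.8 FPKM in perturbed and 25.5 FPKM in control cells. KCNK13 stayed under 1 FPKM, at 0.827 and 0.0952 FPKM, about 17 and 2 fragments.

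Voltage-gated potassium channels open on depolarization. Of 40 members, 20 were listed at 0 in both libraries and 6 reached 1 FPKM. KCNG1 was the most abundant, at 4.36 FPKM in perturbed and 2.46 FPKM in control cells. It encodes a modifier subunit that forms no functional channel by itself and joins other potassium channel subunits. The ether-a-go-go relative KCNH3 was at 4.05 and 2.36 FPKM, and KCNH2, which encodes hERG, at 2.2 and 1.0 FPKM. The Shaw-type channel KCNC4 was at 2.99 and 1.61 FPKM. These 4 genes lay within the rule, with folds of 1.72 to 2.2, each on a counting interval above 1.

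KCNQ1, which carries a cardiac and epithelial potassium current, was at 0.522 FPKM in perturbed and 1.65 FPKM in control cells, 3.16-fold lower (1.54 to 6.35), and missed the rule at a log2 ratio of -0.80. KCNQ5 was at 0.261 and 0 FPKM. KCNQ5-IT1, a non-coding transcript named for an intron of KCNQ5, was at 1.22 FPKM in the control and listed at 0 in the perturbed library. That call rested on about 4 fragments of a 563-base transcript, and its counting interval included a fold of 1. KCND1, an A-type channel subunit, was at 0.0749 and 0.977 FPKM, 13.0-fold lower (3.82 to 61.2), just under the 1 FPKM filter. KCND1 and KCNK13 were singled out after their values were seen.

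Inward rectifiers (KCNJ) pass potassium more easily into the cell than out. Of 16, only KCNJ14 reached 1 FPKM, at 1.58 FPKM in perturbed and 0.292 FPKM in control cells. This is 5.40-fold (2.52 to 15.1), with a log2 ratio of 0.996 just short of the threshold, so KCNJ14 was not called. The related KCNJ12 and KCNJ18 are near-identical copies between which reads can be split, and both were under 0.5 FPKM. Of the 8 genes of the KCNMA, KCNN, KCNT and KCNU groups, most of which encode potassium channels opened by calcium or sodium, none reached 1 FPKM. KCNN3, a small-conductance channel, was the highest at 0.598 and 0.169 FPKM, and KCNMA1, the large-conductance BK pore, was at 0.169 and 0.166 FPKM.

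Auxiliary potassium subunits were seen above 0 in 14 of 16 cases, and 3 reached 1 FPKM. KCNE2, a single-span subunit that joins KCNQ1 in gastric and thyroid epithelium, was at 6.38 FPKM in perturbed and 8.63 FPKM in control cells, on an interval that included a fold of 1. KCNIP3, a calcium-binding partner of A-type channels also known as the transcriptional repressor DREAM, was at 6.85 and 3.02 FPKM, 2.27-fold (1.61 to 3.27). KCNIP3 missed the rule at a log2 ratio of 0.96. KCNMB3, a beta subunit of the BK channel, was at 2.2 and 0.535 FPKM, 4.12-fold higher (1.60 to 10.4). KCNMB3 and KCNIP3 were thus each above the level of the pore genes they are named for, KCNMA1 and the KCND genes, in both libraries. Both had passed the 1 FPKM filter, and other genes of their families did not share this. KCNMB4, at 0.0499 and 0.0488 FPKM, was below KCNMA1, and KCNMB1 and KCNMB2 were listed at 0 in both.

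Among voltage-gated calcium channels too, the auxiliary genes that reached 1 FPKM lay above the pore genes, while CACNB4 and CACNA2D4 were listed at 0 in both libraries. Of 10 CACNA1 pore genes, 8 were listed at 0 in both libraries, CACNA1A was at 0 and 0.0393 FPKM, and CACNA1G, a low-voltage-activated T-type pore, was at 0.404 and 0.0595 FPKM. The beta subunit gene CACNB3, by contrast, was at 9.72 FPKM in perturbed and 7.44 FPKM in control cells, and CACNB1 at 1.74 and 2.48 FPKM. Beta subunits bind the pore inside the cell and bring it to the membrane. CACNA2D1, an extracellular subunit that is the target of gabapentin, was at 1.03 and 0.0838 FPKM, 12.2-fold (4.22 to 67.2), on about 39 and 3 fragments. With the added 1 FPKM its log2 ratio was 0.90 and it was not called. CACNA2D3 was at 0 and 0.445 FPKM, the opposite order.

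Among voltage-gated sodium channels, no pore gene of 10 reached 1 FPKM. SCN8A, a pore of neurons, was at 0.342 FPKM in perturbed and 0.0295 FPKM in control cells, about 34 and 3 fragments. Of the 4 beta subunit genes, whose products are adhesion molecules as well as channel partners, 3 reached 1 FPKM and each had a ratio above 0. SCN2B was at 3.75 FPKM in perturbed and 1.03 FPKM in control cells, 3.65-fold higher (2.69 to 5.10), and was the only one called. SCN4B was at 1.19 and 0.281 FPKM. The SCN4B interval, 2.13 to 8.96 by the median transcript length, included 1 when the shortest transcript was used. SCN3B was listed at 0 in both. In all, 9 of 36 auxiliary genes of potassium, calcium and sodium channels (25%) reached 1 FPKM in a library. Among pore genes of every family it was 23 of 149 (15.4%). These 149 include the SCNN, TRP, CLC, anoctamin, P2X and PIEZO genes, which have no auxiliary gene among the 36.

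The epithelial sodium channel is built from several SCNN1 subunits and takes up sodium at the apical membrane. SCNN1A, its alpha subunit, was at 7.0 FPKM in perturbed and 8.40 FPKM in control cells, on an interval that included a fold of 1. Its usual partners SCNN1B and SCNN1G were listed at 0 in the perturbed library and at 0.0461 and 0.0335 FPKM in the control, each about 1 fragment. SCNN1D, which can replace the alpha subunit, was at 0.736 and 0.680 FPKM.

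Mechanically gated and TRP channels carry calcium and other cations. PIEZO1, the stretch-activated channel, was at 5.39 FPKM in perturbed and 1.93 FPKM in control cells, 2.79-fold higher (2.29 to 3.42), on about 377 and 138 fragments. PIEZO2 was listed at 0 in both libraries. TRPV1, the capsaicin receptor, was at 1.92 and 0.585 FPKM, 3.27-fold (1.94 to 5.53), and lay within the rule at a log2 ratio of 0.88. TRPV4, an osmotically and mechanically sensitive channel, was at 1.07 and 1.26 FPKM. TRPV2, singled out after its values were seen, was at 0.0433 and 0.720 FPKM, 16.6-fold lower (2.61 to 695), on about 1 fragment in the perturbed library. The magnesium-permeable channel kinase TRPM7 was at 0.730 and 0.617 FPKM and was the highest of the TRPM genes. No TRPC gene exceeded 0.146 FPKM. P2RX4, an ATP-gated channel found largely in lysosomes, was the most abundant channel subunit among the members in the perturbed library, at 11.1 FPKM there and 8.0 FPKM in the control, and P2RX7 was listed at 0 in both.

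Chloride channels, exchangers and scramblases move anions or lipids. ANO6, which encodes the calcium-activated phospholipid scramblase and channel TMEM16F, was at 10.7 FPKM in perturbed and 3.64 FPKM in control cells, 2.95-fold higher (2.49 to 3.51), on about 525 and 182 fragments. It had the most fragments of the called members in the perturbed library. ANO10 was at 6.19 and 3.97 FPKM, and ANO1, the classical calcium-activated chloride channel, at 0 and 0.0325 FPKM. Of 7 CLCN genes, 5 reached 1 FPKM and none was called. The lysosomal chloride-proton exchanger CLCN7 was at 10.05 and 6.94 FPKM, 1.45-fold (1.23 to 1.70), and the plasma membrane channel CLCN2 at 5.94 and 9.26 FPKM, 1.56-fold lower (1.27 to 1.93). CLCN3, CLCN6 and CLCN4 lay from 1.12 to 1.76 FPKM in each library, on intervals that included a fold of 1.

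**Figure D3:**
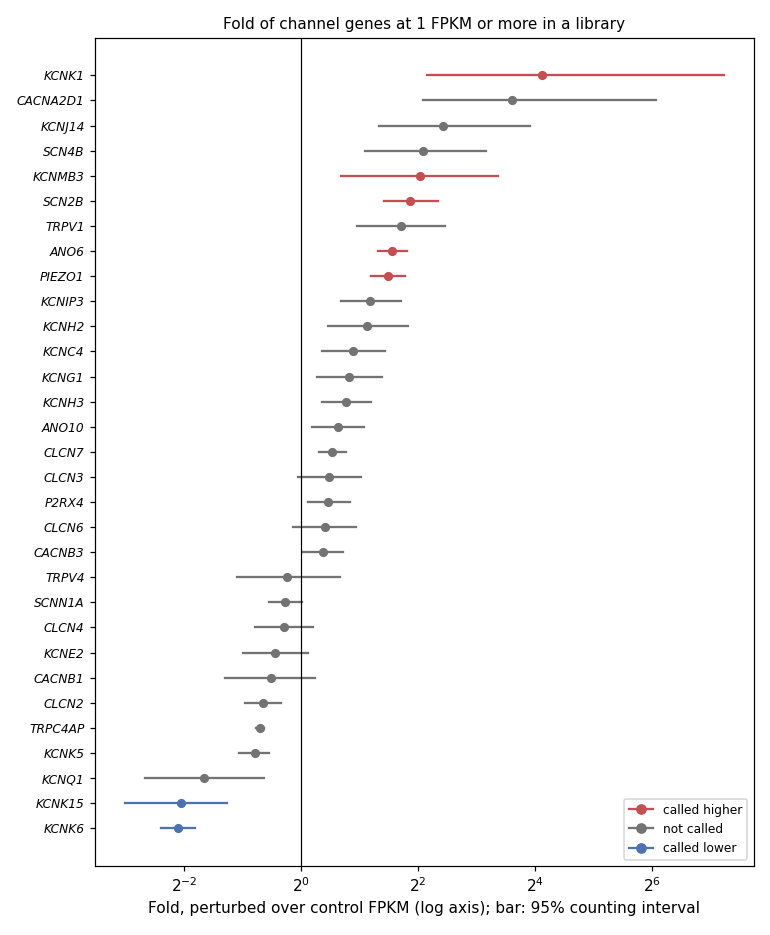
Fold of perturbed over control FPKM (log axis) with its 95% counting interval for 31 of the 33 expressed members above 0 in both libraries; each fold compares 2 libraries. The intervals are widest for KCNK1 and CACNA2D1, and the widths of ANO6, PIEZO1 and KCNK6 are narrow beside their distance from 1.

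The counting intervals treat fragments as independent molecules, which PCR copies are not, so they are too narrow by an unknown amount. Of the 34 expressed members, 25 had an interval that excluded a fold of 1, 19 above and 6 below, and 17 of the 25 were not called by the rule of size. The 9 others included KCNE2, SCNN1A, CACNB1, TRPV4 and the 3 weaker CLCN genes named above. P2RX4 joined SCN4B in losing this property when the shortest transcript was used. The intervals hold no error between cultures. Among the 77 members above 0 but under 1 FPKM, 32 had 3 fragments or fewer in each library. An interval excluded 1 for 19 of the 77, above for 13 and below for 6. Besides those already named, the largest levels among these 19 were those of the modifier subunit KCNG3, at 0.597 and 0.123 FPKM, and KCNH7, at 0.508 and 0.147 FPKM. Intervals were not made for all genes, so no share over all genes stands beside the interval counts among the 34 or the 77. Nothing particular to channel genes is read from these counts. Just outside the rule lay KCNJ14 (0.996), KCNIP3 (0.96), CACNA2D1 (0.90) and TRPV1 (0.88), as log2 ratios. Among the called members named, KCNMB3 (1.06), PIEZO1 (1.12) and, on the lower side, KCNQ5-IT1 (-1.15) lay just inside it.

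Long transcripts had higher ratios in these libraries, and many expressed members had long transcripts. The median transcript length was 3089 bases for the 34 expressed members and 2570 bases for all expressed genes. In the longest quartile of genes, from 3977 bases, the median log2 ratio was 0.21 and 12.0% were called higher, against medians of -0.11, -0.21 and -0.12 and shares of 5.54% to 6.07% in the other quartiles. That quartile held 11 of the 34 members, with a median of 0.77 and ANO6, PIEZO1 and SCN2B called higher, and it also held KCNK6. After smooth trends on length, GC content and level over all measured genes were removed, PIEZO1 was within the rule, and ANO6, KCNK1, KCNMB3, SCN2B and the 3 lower members were still past it, beside 7.03% higher and 6.11% lower of all genes. With trends fitted over expressed genes alone, an alternative chosen after seeing the data, only ANO6 and KCNK1 remained higher, at log2 ratios of 1.18 and 1.23, beside 5.63% of all genes. KCNK6 was then at -1.94 and KCNK15 at -1.46.

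**Figure D4:**
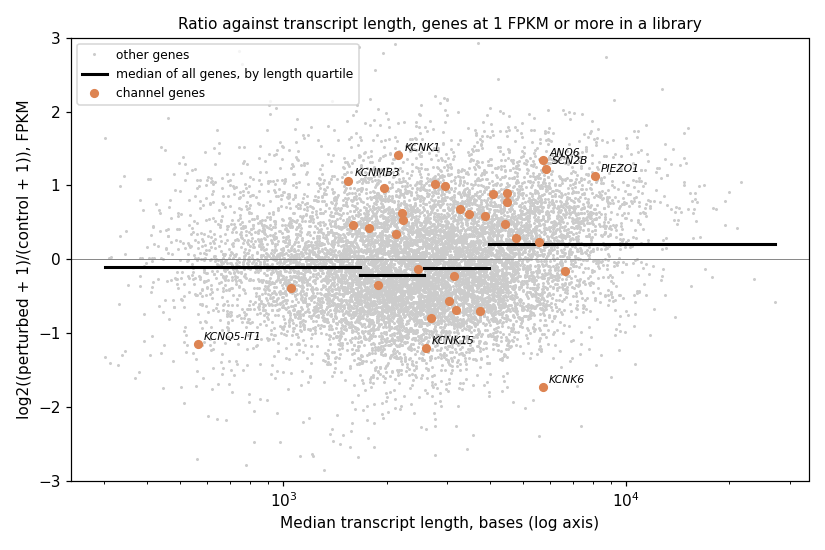
Log2 ratio with 1 FPKM added (y axis) against the median transcript length (log axis) for expressed genes; grey points are other genes, orange points the 34 members, and bars the median of all genes in each length quartile. The bar of the longest quartile sits at 0.21, above the other 3, and KCNK6 lies far below it; 24 genes fall outside the axis.

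Some members are no channel subunit, 11 in all. TRPC4AP, an adaptor of a ubiquitin ligase that takes its name from TRPC4 binding, was at 104 FPKM in perturbed and 169 FPKM in control cells, far above any channel subunit among the members. Its fold was 1.62-fold lower (1.54 to 1.70), within the rule, and TRPC4 itself was listed at 0 in both libraries. The read-through locus P2RX5-TAX1BP3, at 0.249 and 0.196 FPKM, shares exons with P2RX5, at 0.539 and 0.334 FPKM, so their values are uncertain.

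Pumps, other channels and regulators that act with these genes were taken from 9 lists outside the symbol rule. Of 140 measured genes, 68 were expressed, of which 10 were called higher and 5 lower, with a median log2 ratio of 0.13. Among all expressed genes, 7.85% were called higher and 7.61% lower, with a median of -0.06. From 1 to 20 FPKM the shares were 10.1% and 6.45%. The counts within single lists are small, and nothing particular to a list is read from them. Of 8 expressed Na/K-ATPase genes, the small regulators FXYD6 (6.13-fold, 4.23 against 0.689 FPKM) and FXYD1 (2.31-fold) were higher and FXYD5 was lower (57.9 against 122 FPKM). Of 6 calcium pumps and exchangers, ATP2B1, the plasma membrane calcium pump, was higher, at 11 against 2.22 FPKM, 4.96-fold (4.11 to 6.02). None of 12 genes of store-operated entry and calcium release was called, and TMCO1, an endoplasmic reticulum calcium leak protein, was the most abundant at 37.1 and 54.7 FPKM. Of 8 endolysosomal genes, MCOLN2 was higher, at 1.86 against 0.387 FPKM.

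Among 7 cotransporter and kinase genes, 3 were called higher and none lower. The sodium-potassium-chloride cotransporter SLC12A2 was at 4.05 against 1.51 FPKM, and its upstream kinases WNK1 and WNK2 at 3.79 against 0.431 FPKM and 1.39 against 0.179 FPKM. Of 12 anion channel genes, TTYH3 was higher (4.47 against 1.65 FPKM), and LRRC8E, a subunit of the volume-regulated anion channel, was lower (3.95 against 9.26 FPKM), as was BSND, the barttin subunit of kidney CLC channels, listed at 0 against 1.04 FPKM. LRRC8A, the obligatory subunit of the volume-regulated channel, was at 21.6 and 29.7 FPKM. Of 8 trafficking and ubiquitin regulators, SGK1, a kinase that raises the surface number of epithelial sodium channels, was lower, at 5.49 against 26.5 FPKM, 4.83-fold (3.92 to 6.0), and the anchoring protein AKAP9 was higher, at 3.27 against 0.812 FPKM. NEDD4L, the ubiquitin ligase on which SGK1 acts, was at 1.58 and 1.67 FPKM. Of 3 other cation channels, TMEM63B, an osmotically gated channel, was lower (3.65 against 10.4 FPKM), and of 4 connexins and pannexins, the connexin GJB2 was higher (17.6 against 5.70 FPKM). With the trends over all measured genes removed, 5 of the 10 higher and 4 of the 5 lower genes of these lists were still past the rule. Of all genes, 7.03% were then higher and 6.11% lower. The log2 ratios of the other called list genes were then 0.94 for FXYD1, 0.93 for AKAP9, 0.86 for SLC12A2, 0.81 for TTYH3, 0.67 for WNK2 and -0.78 for FXYD5.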

How the data were processed

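RNA-seq of 2 libraries, 1 per group, was analysed from 1 deposited table per library. The authors deposited FPKM values for 26255 gene symbols, per the file headers. Per the submitters' processing notes, reads were handled with Bowtie2 2.2.8, TopHat2 2.1.1, Cuffdiff 2.2.1 and SAMtools 0.1.18 on hg19. Not given in the sources used here are the annotation, the filters and any scaling between libraries. Per the labels' protocols, cDNA came from the SMART-Seq HT kit and libraries from Nextera XT. Strand is not marked by this chemistry, so antisense partners cannot be separated, and PCR copies are not independent molecules.

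Members were found by symbol. The members, the lists and the rule of size (2-fold with 1 FPKM added, among genes reaching 1 FPKM in either library) were chosen with earlier results of these data known. Named were the called members, the 3 highest of each class at 1 FPKM or more, those within 0.2 of the threshold, and the called or most abundant genes of each related list; a few others, given for comparison, were picked with their values in view. The depth was read from the densest window, 2% wide, of single-fragment values over genes with 1 transcript, which gave a shortening of transcripts by 200 bases. A 2 kb transcript at 1 FPKM then had about 16.3 fragments in the control. Fragment numbers used the median length of GENCODE 29 transcripts matched to RefSeq (each of the 34 members at 1 FPKM or more had one). The depth search, rule, intervals and trend removal were tested on simulated data. Files were processed in Python 3.11.15 with numpy 2.4.6, pandas 2.3.3 and scipy 1.17.1. Promoter shares used the first listed RefSeq start of each gene. GRCh38 was not used to place any value. Some members and list genes entered the counts and are not reported here singly.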

Additional observations from a re-analysis of the deposited data

How the results depend on the processing

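No paired analysis was possible because each group had 1 library, and no library could be left out. The 6 higher and 3 lower members became 12 and 4 with 0.1 FPKM added (all genes 13.8% higher and 10.8% lower) and 0 and 1 with 5 FPKM added (1.86% and 3.22%). They became 15 and 6 at 1.5-fold (19.1% and 21.3%) and 0 and 0 at 4-fold (0.602% and 0.713%). They became 2 and 1 of 13 with a filter of 5 FPKM in a library (6.96% and 8.85%) and 3 and 1 of 23 with 1 FPKM in both (5.45% and 6.85%). The median log2 ratio of 0.47 became 0.58 and 0.24 with 0.1 and 5 FPKM added, 0 without a filter and 0.34 under each stricter filter. With trends over all measured genes removed it was 0.42, beside 0.01 for all genes at 1 FPKM or more, and 22 members had a ratio above 0. The share of all genes above 0 in that setting was not computed. With trends fitted over genes at 1 FPKM or more the members' median was 0.29, beside -0.07 for all such genes. Then 2 members were higher and 4 lower, the fourth being KCNQ1, beside 5.63% and 7.28% of all genes.

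Scaling each library to a sum of 1000000 shifted log2 ratios by 0.14, and centring on the median ratio corrected a shift of -0.11. Under these and the trimmed mean of ratios, the 6 higher and 3 lower members all kept their call, and 8 or 9 members were higher. Of all genes, 10.5% were higher and 5.70% lower with the common sum. The shares were 9.33% and 5.79% with centring and 9.36% and 5.76% with the trimmed mean. The depth limits the weaker members: of 77 under 1 FPKM in both libraries and above 0 in at least 1, 32 had 3 or fewer fragments in each.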
